A study of Homo sapiens with 8 samples.

Results

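SLC2A1, the gene for the glucose transporter GLUT1, and 9 genes of glycolysis were followed in HT29 cells treated with the MEK inhibitor selumetinib. The genes were chosen by symbol (SLC2A1, HK2, GPI, PFKP, PFKFB3, ALDOA, PGK1, ENO1, PKM and LDHA) and make up 10 of the 38148 genes in the deposited table. All 10 were among the 14219 genes tested, whose average over the 8 libraries, taken on the log2 scale, reached 1 RPM. RPM is a gene's reads scaled to a total of 1000000 reads on genes in its library.

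Glycolysis splits glucose into pyruvate and yields ATP in the cytosol. GLUT1 brings glucose into the cell, hexokinase traps it as glucose 6-phosphate, phosphofructokinase commits it to the pathway, and lactate dehydrogenase turns pyruvate into lactate while renewing the NAD+ that the pathway uses. Many cancer cells, colorectal cancer cells among them, take up much glucose and release lactate even when oxygen is present, and ERK signalling, MYC and hypoxia-inducible factor HIF1 are known inputs to the transcription of these genes.

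The cells were HT29, an established line from a human colorectal tumour, and selumetinib blocks MEK1 and MEK2, which phosphorylate ERK. Cultures received 1 μM of the drug over 24 h or none. Glyoxal-fixed cells were then sorted by staining for CCNB1, the cyclin that builds up as cells approach mitosis, and poly(A) mRNA from each sort was sequenced. This gave 4 groups of 2 libraries, a CCNB1-negative and a CCNB1-positive fraction of drug-free cells and the same pair of fractions from treated cells, with nothing else differing in the labels. The labels name RPMI-1640 as growth medium whereas the study's methods name McCoy's 5A for HT29. Replicates were numbered without mention of separate cultures, so p-values measure the spread between these libraries, which may be technical.

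The sample labels are in conflict. In all 8 cases the title and the short description name opposite treatments and opposite fractions, and the growth medium entry goes with the title on treatment. The descriptions, which match the column headings of the data, set the groups here. Had the titles been used, the response given below for CCNB1-positive cells would be that of CCNB1-negative cells with its sign changed, and the reverse. The 2 differences between fractions would likewise trade places and change sign, and the difference between the responses would stay as given. CCNB1 mRNA was at 136 and 171 RPM in untreated CCNB1-negative, 591 and 704 in untreated CCNB1-positive, 6.93 (replicate 2) and 11.0 (replicate 1) in treated CCNB1-negative and 309 and 267 in treated CCNB1-positive libraries. DUSP6, a phosphatase gene induced by ERK, was between 62.6 and 112 RPM in the 4 untreated and between 26.3 and 42.7 RPM in the 4 treated libraries. CCNB1 was thus higher in the fractions that the descriptions call positive, and DUSP6 lower in the libraries that they call treated.

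Reads on genes numbered between 12696860 and 23916160 per library, with the treated CCNB1-negative libraries lowest (12696860 and 13987432). The share of reads on mitochondrial genes was between 4.44% and 7.80% in untreated and between 11.9% and 14.8% in treated libraries, and the share on the nuclear RNA MALAT1 was between 0.303% and 0.386% in untreated and between 2.01% and 4.42% in treated libraries. The 9 epithelial marker genes summed to between 10768 and 12065 RPM in untreated and between 5420 and 9162 RPM in treated libraries. They went both ways (limma, adjusted p under 0.05). EPCAM fell in both fractions and KRT8 and KRT18 in CCNB1-negative cells, while CDX2 and VIL1 rose in both fractions and CDX1 in CCNB1-positive cells. The 7 markers of fibroblasts, blood cells and endothelium summed to between 1.57 and 2.13 RPM in untreated and between 3.54 and 7.16 RPM in treated libraries. Of these only COL1A1 was tested, and it rose in both fractions (log2 changes 1.81 and 2.19).

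The promoters of 4 of the genes are shown because SLC2A1, HK2 and LDHA fell by more than most genes under selumetinib whereas PFKFB3 did not fall in CCNB1-negative cells. ENO1, whose promoter is not shown, fell more than SLC2A1 in both fractions (log2 changes -3.09 and -2.10 against -2.78 and -2.04). Each sequence is the RefSeq promoter of the first listed start site on GRCh38.p14, 250 bases before to 50 after the start, read on the strand of the gene. Capitals mark ACGTG and GCGTG on either strand (reverse complements CACGT and CACGC), the core letters that HIF1 binds. CACGTG, the E box bound by MYC, holds ACGTG once on each strand and was counted so.
SLC2A1 promoter (chr1:42958819-42959118, minus strand): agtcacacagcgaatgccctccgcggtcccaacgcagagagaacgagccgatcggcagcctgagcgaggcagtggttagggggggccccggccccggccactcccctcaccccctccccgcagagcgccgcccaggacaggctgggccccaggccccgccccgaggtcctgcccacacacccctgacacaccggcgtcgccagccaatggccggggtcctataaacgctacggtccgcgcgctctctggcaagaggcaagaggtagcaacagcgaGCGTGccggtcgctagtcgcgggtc
HK2 promoter (chr2:74833877-74834176, plus strand): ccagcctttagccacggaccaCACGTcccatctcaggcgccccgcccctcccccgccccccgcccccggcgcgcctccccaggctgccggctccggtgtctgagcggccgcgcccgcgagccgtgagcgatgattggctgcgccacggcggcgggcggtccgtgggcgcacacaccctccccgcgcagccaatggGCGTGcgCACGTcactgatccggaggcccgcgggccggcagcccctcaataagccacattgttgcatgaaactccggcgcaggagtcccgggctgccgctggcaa
LDHA promoter (chr11:18394313-18394612, plus strand): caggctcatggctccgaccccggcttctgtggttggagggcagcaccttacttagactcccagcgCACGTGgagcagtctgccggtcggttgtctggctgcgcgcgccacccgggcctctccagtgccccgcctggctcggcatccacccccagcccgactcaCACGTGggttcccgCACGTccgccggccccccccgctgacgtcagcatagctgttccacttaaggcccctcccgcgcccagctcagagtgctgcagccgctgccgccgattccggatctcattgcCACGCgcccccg
PFKFB3 promoter (chr10:6144671-6144970, plus strand): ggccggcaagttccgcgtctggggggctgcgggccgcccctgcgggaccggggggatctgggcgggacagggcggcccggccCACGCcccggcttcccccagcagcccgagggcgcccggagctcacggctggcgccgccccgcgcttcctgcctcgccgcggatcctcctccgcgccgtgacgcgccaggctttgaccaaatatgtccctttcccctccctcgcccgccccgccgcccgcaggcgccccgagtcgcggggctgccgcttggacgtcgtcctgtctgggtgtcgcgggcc

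All 10 genes were found in the RefSeq promoter table, with 18 promoters between them. At the first listed start site, ACGTG or GCGTG was present in 9 of 10, PFKP being without either, whereas 48.39% of the 27305 promoters in the table held one. CACGTG was present in 1 of 10, LDHA, against 7.435% of all promoters. LDHA held ACGTG 5 times, of which 2 pairs were the strands of 2 E boxes, and GCGTG once. HK2 held ACGTG 2 times and GCGTG once at this start and had a second listed start with 2 E boxes. The second listed starts of PFKFB3 and ALDOA held 1 E box each. Later listed starts of PFKP held ACGTG once and GCGTG 3 times. SLC2A1 and PFKFB3 each held GCGTG once at the first listed start. These letters were thus shared by genes that fell in both fractions and by PFKFB3, which did not fall in CCNB1-negative cells. They are descriptions of the windows and not evidence of binding.

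Under selumetinib the mRNAs of SLC2A1 and of 8 of the 9 glycolysis genes were expressed at a lower level in both fractions. In CCNB1-negative cells 9 of the 10 genes fell (limma, adjusted p under 0.05), in a table where 35.8% of the 14219 genes were lower and 38.2% were higher. In CCNB1-positive cells 10 of 10 fell, where 27.3% of genes were lower and 38.0% were higher. None of the 10 rose in either fraction, also at an unadjusted p under 0.05 (0 genes) or with limma-voom (0 genes). The median log2 change of the 10 genes was -2.30 in the CCNB1-negative and -1.55 in the CCNB1-positive fraction, beside 0.05 and 0.17 for all genes tested. For 9 genes, PFKFB3 being the exception, each of the 4 treated libraries was below each of the 4 untreated libraries, as it was for 31.4% of genes tested. The plot of mRNA abundance by library and the plot of the responses show these values.

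**Figure D1:**
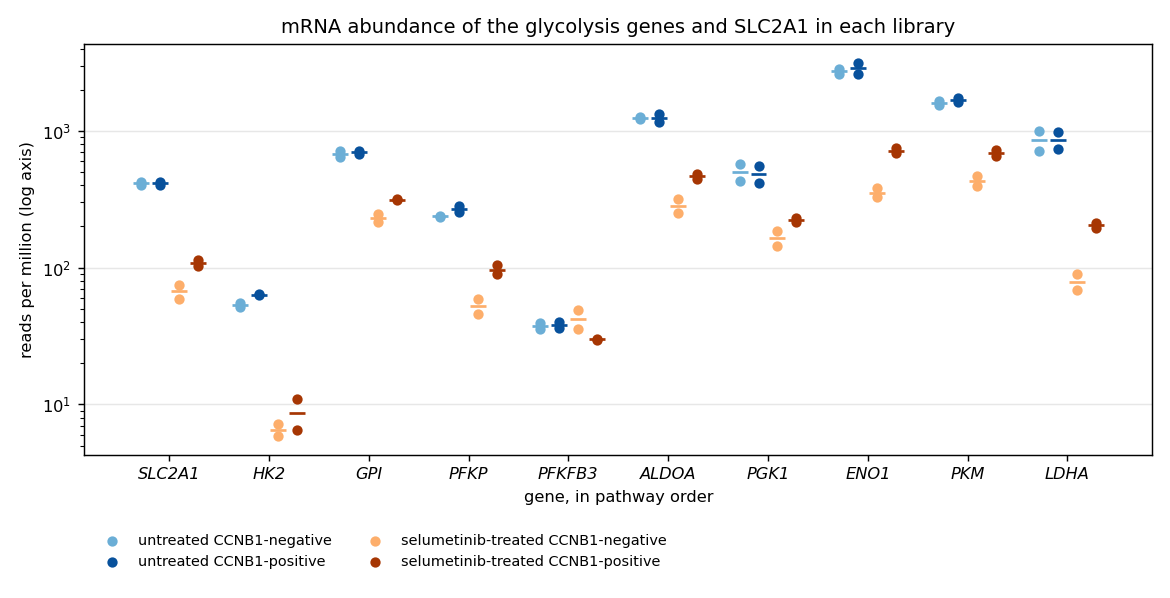
RPM on a log axis for each of the 10 genes, with 1 point per library and a line at the mean of each group of 2. Treated libraries lie below untreated libraries for every gene but PFKFB3, with 1 treated CCNB1-negative library within the untreated range and 1 above it, and heights of different genes are not comparable since they are not per length.

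Together the 10 genes held 0.809% and 0.861% of reads on genes in untreated CCNB1-negative libraries and 0.798% and 0.927% in untreated CCNB1-positive libraries. They held 0.187% and 0.156% in treated CCNB1-negative and 0.287% and 0.283% in treated CCNB1-positive libraries. The share was thus lower in all 4 treated libraries, and lowest in the treated CCNB1-negative ones. In sorted bulk samples such as these, fewer cells expressing a gene and less of its RNA per cell cannot be told apart. The larger mitochondrial and MALAT1 shares of the treated libraries move with the fall. When each library was scaled to nuclear genes without MALAT1, the median change of all genes was 0.36 and 0.42 and that of the 10 genes was -1.99 in the CCNB1-negative fraction and -1.30 in the CCNB1-positive one. Such scaling shifts every gene of a library alike, so the distance between the 10 genes and all genes stays the same by construction. Quantile normalization does not, and with it the median of the 10 genes was -1.86 in the CCNB1-negative and -1.12 in the CCNB1-positive fraction. The medians of all genes were then -0.07 and -0.08, so the falls were smaller with it. The part of the larger mitochondrial and MALAT1 shares in the fall was not tested.

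GLUT1 is the facilitative glucose carrier found in most cells. SLC2A1 (ENSG00000117394, chromosome 1 of GRCh38, 42925375 to 42959176, minus strand) was at 423 and 403 RPM in untreated CCNB1-negative and 401 and 426 RPM in untreated CCNB1-positive libraries. It was at 75.0 and 58.8 RPM in treated CCNB1-negative and 102 and 113 RPM in treated CCNB1-positive libraries. The untreated fractions overlapped, and the treated fractions were apart from the untreated ones and from each other. SLC2A1 fell 6.85-fold in CCNB1-negative cells (log2 change -2.78, 95% interval -3.11 to -2.44, limma adjusted p = 6.4e-09) and 4.13-fold in CCNB1-positive cells (log2 change -2.04, -2.38 to -1.71, adjusted p = 3.3e-07). Of all genes tested, 1.74% had a lower change than SLC2A1 in the CCNB1-negative fraction and 0.605% in the CCNB1-positive one.

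Hexokinase 2 is the inducible hexokinase of tumours, muscle and fat. HK2 (ENSG00000159399, chromosome 2, 74833981 to 74893359, plus strand) was at 54.8 and 51.5 RPM in untreated CCNB1-negative and 63.7 and 62.9 RPM in untreated CCNB1-positive libraries. It was at 5.86 and 7.17 RPM in treated CCNB1-negative and 6.46 and 10.9 RPM in treated CCNB1-positive libraries, between 82 and 154 reads in each treated library. The treated fractions overlapped, and every treated library was far below the untreated ones. HK2 fell 9.03-fold in CCNB1-negative cells (log2 change -3.17, adjusted p = 2.8e-08) and 8.11-fold in CCNB1-positive cells (-3.02, adjusted p = 2.1e-07). In CCNB1-positive cells this was the largest fall among the 10 genes, and 0.0703% of genes tested had a lower change.

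Glucose 6-phosphate isomerase makes fructose 6-phosphate from the product of hexokinase. GPI (ENSG00000105220, chromosome 19, 34359480 to 34402413, plus strand) was at 712 and 646 RPM in untreated CCNB1-negative, 679 and 717 RPM in untreated CCNB1-positive, 247 and 215 RPM in treated CCNB1-negative and 311 and 315 RPM in treated CCNB1-positive libraries. It fell 3.25-fold (log2 change -1.70, adjusted p = 4.2e-07) and 2.40-fold (-1.26, adjusted p = 1.4e-05). A gene listed as AC092073.1 overlaps GPI on the same strand and carried between 64.3% and 73.5% as many reads as GPI, so the counting may have given the same reads to both.

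Phosphofructokinase makes fructose 1,6-bisphosphate and is the committed step, and PFKP encodes the platelet-type subunit that many tumours express. PFKP (ENSG00000067057, chromosome 10, 3066333 to 3137718, plus strand) was at 240 and 233 RPM in untreated CCNB1-negative and 254 and 282 RPM in untreated CCNB1-positive libraries. It was at 59.3 and 45.7 RPM in treated CCNB1-negative and 104 and 89.6 RPM in treated CCNB1-positive libraries. All 4 groups stood apart, with the CCNB1-positive fraction above the CCNB1-negative one under each condition, although the difference in untreated cells did not pass the test. PFKP fell 5.00-fold in CCNB1-negative (log2 change -2.32, adjusted p = 3.5e-08) and 2.99-fold in CCNB1-positive cells (-1.58, adjusted p = 2.9e-06). AL451164.2, on the same strand, carried between 32.1% and 40.3% as many reads as PFKP, and reads of the 2 cannot be told apart where they overlap.

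PFKFB3 encodes the bifunctional enzyme that makes fructose 2,6-bisphosphate, an activator of phosphofructokinase, and unlike the other 9 it encodes no transporter or enzyme through which glucose carbon passes. PFKFB3 (ENSG00000170525, chromosome 10, 6144934 to 6254644, plus strand) was at 39.6 and 35.4 RPM in untreated CCNB1-negative and 40.3 and 36.2 RPM in untreated CCNB1-positive libraries. It was at 35.7 and 48.6 RPM in treated CCNB1-negative and 29.7 and 30.1 RPM in treated CCNB1-positive libraries. Of the treated CCNB1-negative libraries, replicate 1 lay within the range of the untreated ones and replicate 2 above it. The log2 change there was 0.02 (95% interval -0.34 to 0.37, adjusted p = 0.94), so a change within that interval in either direction was not detectable here. In CCNB1-positive cells PFKFB3 fell 1.37-fold (log2 change -0.46, -0.81 to -0.10, adjusted p = 0.027). That call did not hold without any 1 of the 4 CCNB1-positive libraries (adjusted p between 0.055 and 0.14), with limma-voom (-0.35, adjusted p = 0.077) or with scaling to nuclear genes without MALAT1 (-0.20, adjusted p = 0.31).

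Aldolase A splits fructose 1,6-bisphosphate into 2 triose phosphates. ALDOA (ENSG00000149925, chromosome 16, 30064164 to 30070457, plus strand) was at 1214 and 1271 RPM in untreated CCNB1-negative and 1168 and 1326 RPM in untreated CCNB1-positive libraries. It was at 318 and 249 RPM in treated CCNB1-negative and 481 and 448 RPM in treated CCNB1-positive libraries. The untreated fractions overlapped and the treated ones did not. ALDOA fell 4.86-fold in CCNB1-negative (log2 change -2.28, adjusted p = 1.1e-07) and 2.88-fold in CCNB1-positive cells (-1.53, adjusted p = 9.6e-06). The gene listed as AC093512.2 spans ALDOA on the same strand and carried between 100% and 100.8% as many reads, so nearly every ALDOA read was also counted for it.

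Phosphoglycerate kinase 1 makes the first ATP that the pathway returns. PGK1 (ENSG00000102144, chromosome X, 77910739 to 78129295, plus strand) was at 430 and 568 RPM in untreated CCNB1-negative and 418 and 553 RPM in untreated CCNB1-positive libraries. It was at 186 and 145 RPM in treated CCNB1-negative and 232 and 216 RPM in treated CCNB1-positive libraries. Replicate 2 was above replicate 1 in both untreated fractions, and no treated library reached the untreated ones. PGK1 fell 3.31-fold in CCNB1-negative (log2 change -1.73, adjusted p = 2.9e-06) and 2.30-fold in CCNB1-positive cells (-1.20, adjusted p = 0.00013). The span given for PGK1 covers much of ATP7A on the same strand, whose reads came to between 2.89% and 4.13% of those of PGK1 in untreated and between 8.92% and 29.2% in treated libraries.

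Enolase 1 makes phosphoenolpyruvate. ENO1 (ENSG00000074800, chromosome 1, 8861000 to 8879190, minus strand) was the gene with the most reads of the 10 in every untreated library, at 2616 and 2847 RPM in CCNB1-negative and 2602 and 3153 RPM in CCNB1-positive cells. It was at 380 and 328 RPM in treated CCNB1-negative and 687 and 746 RPM in treated CCNB1-positive libraries. The 2 treated groups were apart, with the CCNB1-negative one lower. ENO1 fell 8.51-fold in CCNB1-negative (log2 change -3.09, 95% interval -3.52 to -2.66, adjusted p = 1.8e-08) and 4.30-fold in CCNB1-positive cells (-2.10, -2.53 to -1.68, adjusted p = 1.5e-06).

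Pyruvate kinase makes pyruvate and ATP, and PKM encodes its M1 and M2 forms, which reads counted per gene do not separate. PKM (ENSG00000067225, chromosome 15, 72199029 to 72231822, minus strand) was at 1649 and 1557 RPM in untreated CCNB1-negative and 1618 and 1731 RPM in untreated CCNB1-positive libraries. It was at 471 and 395 RPM in treated CCNB1-negative and 724 and 652 RPM in treated CCNB1-positive libraries. The untreated fractions overlapped and the treated ones did not. PKM fell 4.09-fold in CCNB1-negative (log2 change -2.03, adjusted p = 3.6e-07) and 2.62-fold in CCNB1-positive cells (-1.39, adjusted p = 2.4e-05). Its share of the reads of the 10 genes was between 18.1% and 20.4% in untreated and between 23.0% and 25.3% in treated libraries. The share of ENO1 was at least 32.3% in untreated and between 20.4% and 26.3% in treated libraries.

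Lactate dehydrogenase A makes the subunit that favours lactate formation from pyruvate. LDHA (ENSG00000134333, chromosome 11, 18394560 to 18408425, plus strand) was at 716 and 995 RPM in untreated CCNB1-negative and 740 and 987 RPM in untreated CCNB1-positive libraries. It was at 89.9 and 68.1 RPM in treated CCNB1-negative and 196 and 210 RPM in treated CCNB1-positive libraries. The untreated fractions overlapped, with replicate 2 the higher in each, and both treated CCNB1-negative libraries were below both treated CCNB1-positive ones. LDHA had the largest fall of the 10 genes in CCNB1-negative cells, 11.9-fold (log2 change -3.57, 95% interval -4.02 to -3.12, adjusted p = 7.6e-09), and 0.542% of genes tested had a lower change. In CCNB1-positive cells it fell 4.52-fold (log2 change -2.18, -2.62 to -1.73, adjusted p = 1.6e-06).

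**Figure D2:**
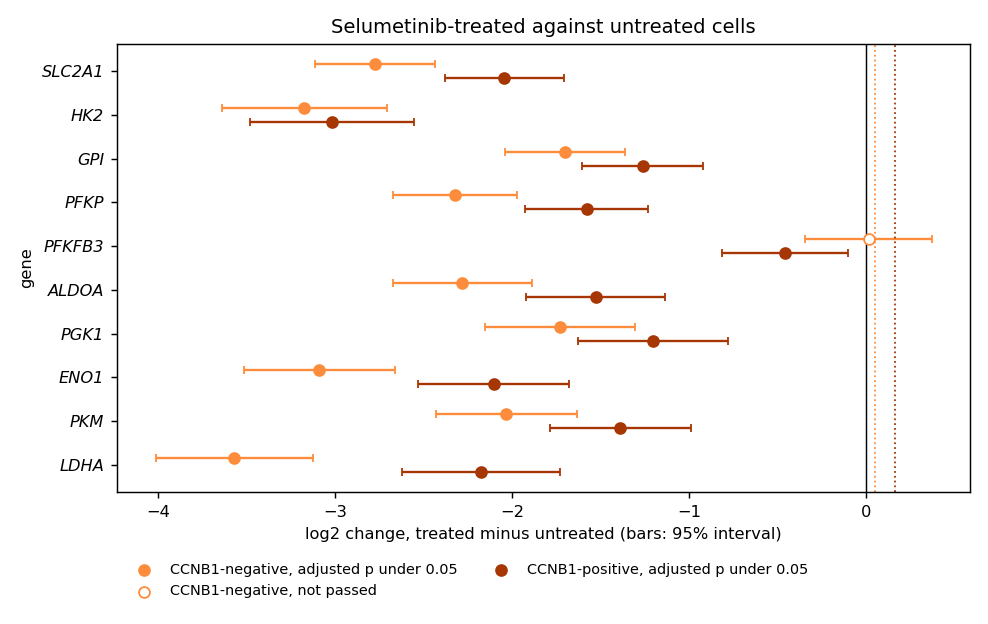
Log2 change under selumetinib for each gene, treated minus untreated, with 95% intervals, in CCNB1-negative and CCNB1-positive cells (filled points passed at adjusted p under 0.05, dotted lines are the medians of all genes tested, 0.05 and 0.17). The changes run from -3.57 for LDHA to 0.02 for PFKFB3 in CCNB1-negative cells and from -3.02 for HK2 to -0.46 for PFKFB3 in CCNB1-positive cells.

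The comparison of the fractions asked whether the genes differed along the cell cycle. In untreated cells none of the 10 differed (0 genes with limma at an adjusted p under 0.05, 0 at an unadjusted p under 0.05 and 0 with limma-voom), where 2.87% of genes tested did. Their log2 differences, CCNB1-positive minus CCNB1-negative, ran from -0.03 for PGK1 to 0.26 for HK2, and the 95% intervals lay between -0.46 and 0.72. HK2 and PFKP had both CCNB1-positive libraries above both CCNB1-negative ones, and the other 8 genes overlapped. Neither difference passed (limma adjusted p = 0.71 and 0.73). How many of all genes tested had such an order was not counted, so it is not read as a difference.

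In selumetinib-treated cells 7 of the 10 genes were expressed at a higher level in the CCNB1-positive fraction, where 21.6% of genes tested differed in either direction. LDHA was 2.67-fold higher (log2 difference 1.42, 95% interval 0.97 to 1.86, adjusted p = 3e-04) and ENO1 2.09-fold higher (1.06, 0.63 to 1.49, adjusted p = 0.0022). PFKP was 1.90-fold (0.93, adjusted p = 0.0013), ALDOA 1.70-fold (0.76, adjusted p = 0.01) and SLC2A1 1.67-fold higher (0.74, adjusted p = 0.0051). PKM was 1.64-fold (0.71, adjusted p = 0.016) and GPI 1.40-fold higher (0.48, adjusted p = 0.043). HK2 (0.41, 95% interval -0.05 to 0.88, adjusted p = 0.18), PGK1 (0.49, 0.06 to 0.91, adjusted p = 0.091) and PFKFB3 (-0.44, -0.79 to -0.08, adjusted p = 0.074) did not pass. Both CCNB1-positive libraries were above both CCNB1-negative ones for 8 genes, as for 33.0% of genes tested, and PFKFB3 had the reverse order. The higher levels were still below those of untreated cells: the highest treated library was below the lowest untreated one for each of the 7 genes, with LDHA at 210 against 716 RPM for LDHA.

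**Figure D3:**
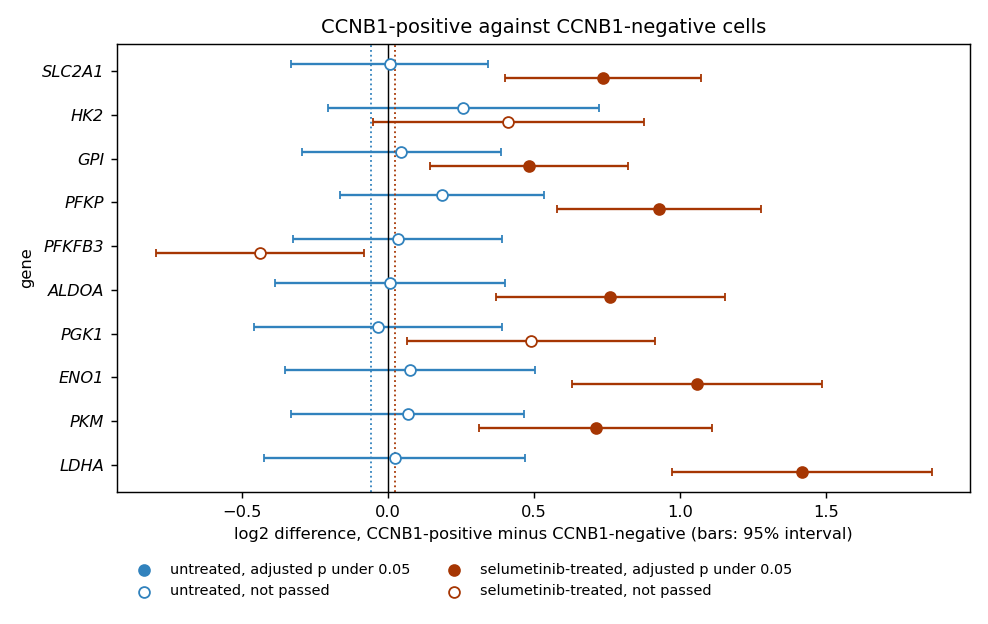
Log2 difference between fractions for each gene, CCNB1-positive minus CCNB1-negative, with 95% intervals, in untreated and in selumetinib-treated cells (filled points passed at adjusted p under 0.05, dotted lines are medians of all genes tested). In untreated cells the differences lie between -0.03 and 0.26, and in treated cells they reach 1.42 for LDHA while PFKFB3 lies at -0.44.

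This count depended on single libraries and, for GPI, PKM, HK2, PGK1 and PFKFB3, on the processing. It was 3 without treated CCNB1-negative replicate 2 and 4 without treated CCNB1-positive replicate 2, and 9 at the most over the 8 libraries left out in turn. LDHA, PFKP and ENO1 passed with each library left out (adjusted p at most 0.0085, 0.024 and 0.028). SLC2A1 missed at adjusted p = 0.051 without either of those 2 libraries. ALDOA missed without treated CCNB1-negative replicate 2 or treated CCNB1-positive replicate 1 (adjusted p = 0.098 and 0.09), and PKM missed without these or treated CCNB1-positive replicate 2 (0.12, 0.14 and 0.054). GPI missed without any of 6 libraries (adjusted p between 0.05 and 0.22), untreated CCNB1-negative replicate 2, both untreated CCNB1-positive, treated CCNB1-negative replicate 2 and both treated CCNB1-positive libraries. GPI also missed with no filter on low values (adjusted p = 0.15), with upper-quartile scaling (0.072), with scaling to nuclear genes without MALAT1 (0.078), with a pseudocount of 1 RPM (0.05 after rounding) and with only the treated groups fitted (0.071), and PKM missed with no filter (0.081). HK2 passed without treated CCNB1-positive replicate 1 (0.78, adjusted p = 0.033), and PGK1 (0.69, adjusted p = 0.037) and PFKFB3 (-0.65, adjusted p = 0.013) without treated CCNB1-negative replicate 1.

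Cell cycle genes moved with this comparison. The 6 genes CCNB1, CCNB2, CCNA2, CDK1, TOP2A and MKI67 summed to between 94.5 and 123 RPM in treated CCNB1-negative and between 2613 and 2810 RPM in treated CCNB1-positive libraries, against between 833 and 1012 RPM and between 3218 and 3508 RPM in the untreated fractions. The treated CCNB1-negative cells were thus poorer in these mRNAs than the untreated CCNB1-negative cells. The 10 genes of ERK output summed to between 417 and 507 RPM in treated CCNB1-negative and between 443 and 483 RPM in treated CCNB1-positive libraries, which overlap. EGR1, which rose under selumetinib (log2 change 1.17, adjusted p = 0.00032, and 1.58, adjusted p = 4e-05) while the other 9 fell in both fractions, made up between 200 and 295 RPM of that sum. Between the treated fractions, ETV5 (1.14, adjusted p = 0.016) and CCND1 (0.47, adjusted p = 0.033) were higher in CCNB1-positive cells, and the other 8 did not pass, ETV4 being at 0.87 (adjusted p = 0.06). The part of cell cycle position and of ERK output in the difference was not tested.

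The 2 responses were compared by their interaction, the log2 change in CCNB1-positive cells minus that in CCNB1-negative cells. LDHA was the 1 gene of the 10 that passed (1.39, 95% interval 0.76 to 2.02, limma adjusted p = 0.011), where 5.33% of genes tested did. Its fall was 11.9-fold in CCNB1-negative and 4.52-fold in CCNB1-positive cells. Without untreated CCNB1-positive replicate 1 (1.18, adjusted p = 0.058) or treated CCNB1-negative replicate 2 (1.18, adjusted p = 0.062) it did not pass, and the count was then 0, while without treated CCNB1-negative replicate 1 it was 5. SLC2A1, PFKP, ALDOA, ENO1 and PKM were at an unadjusted p under 0.05 with values between 0.64 and 0.99 (adjusted p between 0.062 and 0.19). HK2 was at 0.15 (95% interval -0.50 to 0.81) and PFKFB3 at -0.47 (-0.98 to 0.03), and neither passed. The fit used here did not pair same-numbered fractions of the same treatment. With a replicate block within treatment, which pairs them, 9 of the 10 genes passed. Of the 14219 genes tested 3850 then passed, against 758 without the block, so LDHA as the only gene depends on the fit.

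The genes were next set against other members of their families, as shares of the family's reads per kilobase of exon. SLC2A1 made up between 85.3% and 88.0% of the SLC2A family in untreated libraries, between 36.8% and 47.7% in treated CCNB1-negative and between 53.0% and 55.7% in treated CCNB1-positive libraries. It stayed the most abundant SLC2A mRNA in all 8 libraries, with SLC2A8, an intracellular carrier, next at between 14.6% and 17.2% in treated CCNB1-negative and at least 17.7% in treated CCNB1-positive libraries. SLC2A12 rose from between 1.18 and 1.88 RPM in untreated to between 11.6 and 16.1 RPM in treated libraries, with log2 changes of 2.91 (adjusted p = 3.1e-07) in CCNB1-negative and 3.32 (adjusted p = 4.1e-07) in CCNB1-positive cells. SLC2A3, the gene of the neuronal-type carrier GLUT3, was below the testing minimum at no more than 0.213 RPM in any library.

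HK2 made up between 25.1% and 29.2% of hexokinase reads per kilobase in untreated and between 4.30% and 8.04% in treated libraries. HK1, the housekeeping form, fell as well (log2 change -0.70, adjusted p = 0.00027, and -1.02, adjusted p = 1.9e-05), and HKDC1, a hexokinase-like gene, gave -0.04 and 0.20 (adjusted p = 0.82 and 0.27). With lengths from the exons of all transcripts, HKDC1 held the largest share in treated libraries, between 50.7% and 59.9%. By contrast, with lengths of the canonical transcripts HK1 held it in treated CCNB1-negative libraries (HK1 between 56.6% and 56.9%, HKDC1 between 39.5% and 39.6%) and the 2 overlapped in treated CCNB1-positive ones. PFKP made up between 54.8% and 57.6% of phosphofructokinase reads per kilobase in untreated, between 32.5% and 34.7% in treated CCNB1-negative and between 42.7% and 46.2% in treated CCNB1-positive libraries. The liver form PFKL (-1.02 and -0.56) and the muscle form PFKM (-1.07 and -1.31) fell too, each with an adjusted p of 0.0057 or less.

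PFKFB3 made up between 72.8% and 76.0% of its family in untreated and between 55.8% and 63.2% in treated libraries, although its own level moved little. PFKFB4, the other hypoxia-inducible form, rose from between 0.908 and 1.36 RPM in untreated to 12.6 and 16.4 RPM in treated CCNB1-negative and 5.36 and 6.87 RPM in treated CCNB1-positive libraries. Its log2 changes were 3.36 (adjusted p = 2.8e-07) and 2.45 (adjusted p = 1.1e-05), against 0.00 and 0.22 for PFKFB2 (adjusted p = 0.98 and 0.3).

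ALDOA held at least 95.9%, ENO1 at least 93.9%, PKM at least 99.9% and PGK1 at least 99.7% of their families in each library. LDHA held between 20.1% and 24.3% of lactate dehydrogenase reads per kilobase in untreated libraries, between 12.3% and 12.8% in treated CCNB1-negative and 19.5% in both treated CCNB1-positive libraries. LDHB, the form that favours pyruvate, was the more abundant throughout. It fell as well, from between 1312 and 1728 RPM in untreated to between 229 and 430 RPM in treated libraries (log2 change -2.67, adjusted p = 7.3e-08, and -1.87, adjusted p = 4.4e-06).

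**Figure D4:**
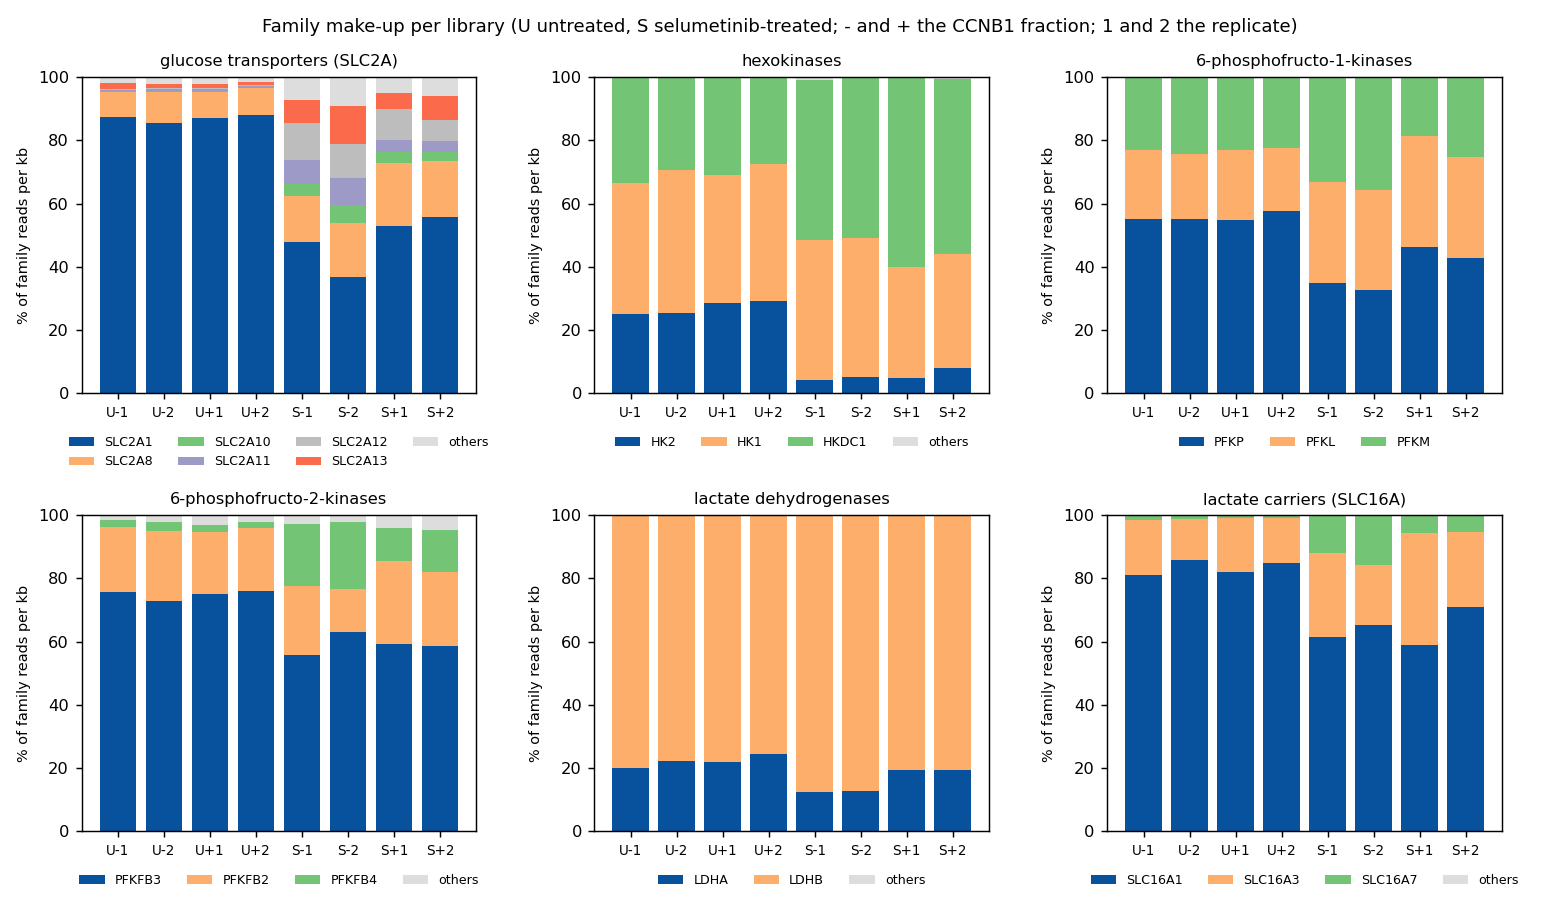
Share of each gene in the reads per kilobase of exon of its family, as stacked bars that sum to 100% in each of the 8 libraries (U untreated, S selumetinib-treated, with the sign of the CCNB1 fraction and the replicate number). The bottom bar is the gene under study (SLC2A1, HK2, PFKP, PFKFB3 and LDHA) or, for the lactate carriers, SLC16A1, and the SLC2A1 bar drops from above 85% to between 36.8% and 55.7%.

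Per kilobase of the exons of all transcripts, the order of the 10 genes in both untreated groups was ENO1, ALDOA, PKM, LDHA, PGK1, GPI, SLC2A1, PFKP, HK2 and PFKFB3. The means ran from 524 RPM per kilobase for ENO1 to 6.13 for PFKFB3 in untreated CCNB1-negative cells. GPI and SLC2A1 overlapped in both untreated groups, and no other neighbours did. In treated CCNB1-negative cells ALDOA was level with ENO1 (67.9), LDHA had moved behind PGK1 and GPI to overlap SLC2A1, PFKFB3 (6.90) was level with PFKP (6.75), and HK2 was last at 1.10. In treated CCNB1-positive cells ENO1 (137) was again first and HK2 last. The order depended on the length used. With lengths of the canonical transcripts PGK1 came behind GPI and SLC2A1 in both untreated groups and overlapped PFKP, and GPI and SLC2A1 no longer overlapped. In treated CCNB1-negative cells LDHA (35.2) then overlapped PGK1 (34.4) and was apart from SLC2A1 (19.8), and PFKP, which overlapped SLC2A1, was apart from PFKFB3 (9.41). HK2 was last in both treated groups under either length.

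Other genes of glucose metabolism were taken from 9 lists of 114 genes, of which 88 were tested. In CCNB1-negative cells 44 of the 88 fell and 21 rose, with a median log2 change of -0.40, and in CCNB1-positive cells 37 fell and 23 rose, with a median of -0.18. Of all genes tested, 35.8% fell and 38.2% rose in CCNB1-negative cells and 27.3% fell and 38.0% rose in CCNB1-positive cells, and the counts of each list are to be read against these shares. The remaining enzymes of the glycolytic trunk fell in 8 of 11 cases in the CCNB1-negative fraction and 6 of 11 in the CCNB1-positive one, and none of the 11 rose. GAPDH, which makes 1,3-bisphosphoglycerate, fell from between 2948 and 3659 RPM in untreated to between 1073 and 1640 RPM in treated libraries (log2 change -1.73, adjusted p = 9.6e-06, and -1.13, adjusted p = 0.00063). Triose phosphate isomerase TPI1 (-2.24, adjusted p = 1.9e-07, and -1.36, adjusted p = 3.6e-05) and phosphoglycerate mutase PGAM1 (-2.02, adjusted p = 3.9e-07, and -1.69, adjusted p = 4.8e-06) fell as well. With them, each step from hexokinase to lactate dehydrogenase had a gene that fell in both fractions. The neuronal enolase ENO2 fell in CCNB1-negative (-0.84, adjusted p = 0.00061) and gave 0.19 in CCNB1-positive cells (adjusted p = 0.35), and its interaction passed (1.03, adjusted p = 0.025). ALDOC gave -0.61 (adjusted p = 0.026) and 0.40 (adjusted p = 0.14).

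Lactate export and the pentose phosphate branch went the same way. Of 5 further lactate genes 4 fell in each fraction, among them the lactate carrier MCT1 gene SLC16A1 (-2.37, adjusted p = 2.3e-08, and -1.97, adjusted p = 4.3e-07), SLC16A3 (-1.39, adjusted p = 3.4e-05, and -0.71, adjusted p = 0.0084) and their chaperone BSG (-0.83, adjusted p = 0.001, and -0.48, adjusted p = 0.034). SLC16A7 rose (log2 changes 1.38, adjusted p = 7.3e-05, and 1.01, adjusted p = 0.0013). Of 7 pentose phosphate genes 6 fell in each fraction, including TKT (-1.79, adjusted p = 1.6e-06, and -1.29, adjusted p = 6.1e-05) and RPE (-2.14, adjusted p = 8.4e-08, and -1.25, adjusted p = 2.1e-05), whose interaction passed (0.89, adjusted p = 0.043). PGLS rose (0.50, adjusted p = 0.0049, and 0.60, adjusted p = 0.0018).

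**Figure D5:**
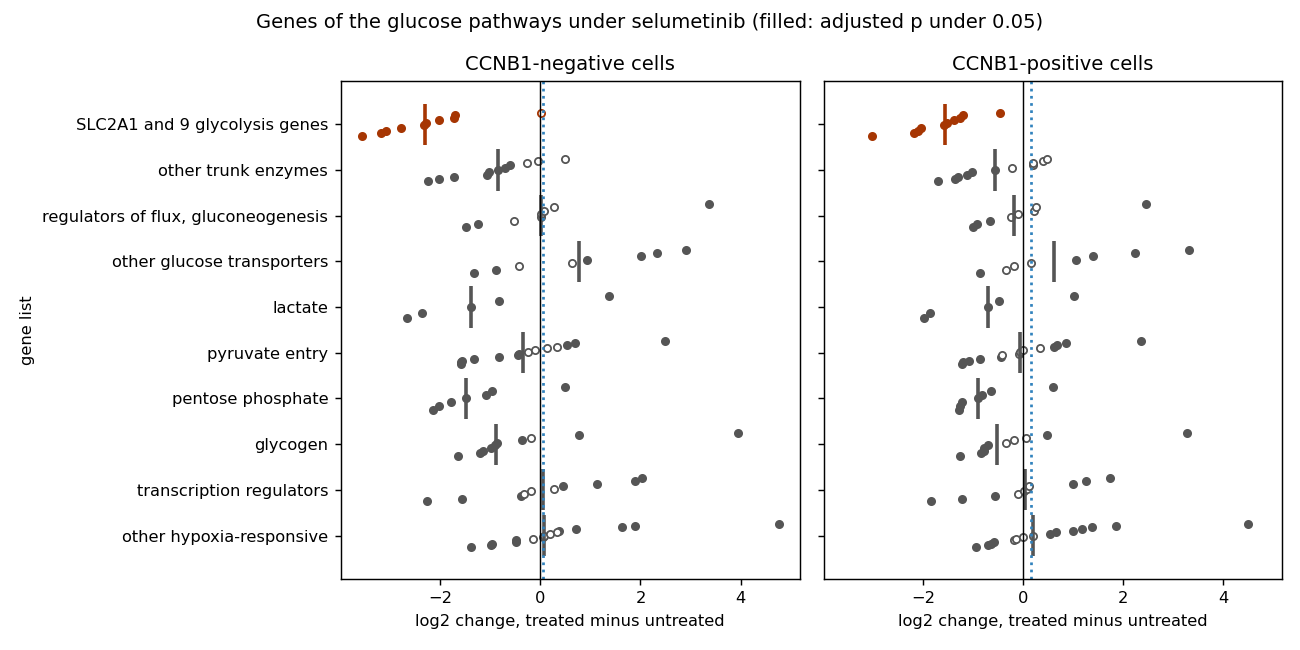
Log2 change under selumetinib of each tested gene, by list, in CCNB1-negative and CCNB1-positive cells (filled points passed at adjusted p under 0.05, bars are list medians, the dotted line is the median of all genes tested). The top row is SLC2A1 and the 9 glycolysis genes, with medians of -2.30 and -1.55, and the lists of glucose transporters and hypoxia-responsive genes reach 2.91 and 4.76 in CCNB1-negative cells.

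Genes around these branches were called in both directions. Of 14 genes of pyruvate entry into mitochondria 7 fell and 3 rose in CCNB1-negative and 5 fell and 4 rose in CCNB1-positive cells, the latter counts being close to the shares of all genes. The dehydrogenase subunit PDHA1 fell (-1.32, adjusted p = 2.1e-06, and -0.85, adjusted p = 0.00019), and PDK4, a kinase that switches the complex off, rose (2.50, adjusted p = 1.1e-05, and 2.36, adjusted p = 3.3e-05). PDK1, the kinase induced by HIF1, gave -0.42 in each fraction (adjusted p = 0.049 and 0.058), and the pyruvate carrier subunit MPC1 gave -0.45 (adjusted p = 0.022) and -0.06 (adjusted p = 0.76). Of 10 glycogen genes 7 and 5 fell and 2 rose, PGM2L1 most (3.95, adjusted p = 4.5e-09, and 3.27, adjusted p = 1e-07). Of 8 other glucose transporter genes 4 rose in each fraction (SLC2A10, SLC2A11, SLC2A12 and SLC2A13), while 2 fell in the CCNB1-negative fraction and 1 in the CCNB1-positive one. Of 8 genes of flux control and gluconeogenesis 2 fell in the CCNB1-negative fraction and 3 in the CCNB1-positive one, and PFKFB4 rose in each. SLC2A10 (2.01, adjusted p = 0.00021, and 2.23, adjusted p = 0.00014) and SLC2A11 (2.34, adjusted p = 5.1e-07, and 1.39, adjusted p = 1e-04) were among the 4, at between 3.92% and 5.59% and between 7.48% and 8.50% of the reads per kilobase of the SLC2A family in treated CCNB1-negative libraries.

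Regulators of these genes were measured as mRNA only. MYC, an activator of glycolytic genes, was at 337 and 302 RPM in untreated CCNB1-negative and between 300.2 and 310 RPM in untreated CCNB1-positive libraries, and at 79.5 and 67.1 RPM and 79.9 and 104 RPM in the treated ones. Its log2 changes were -2.27 (adjusted p = 4.2e-08) and -1.85 (adjusted p = 8.6e-07). HIF1A, which is controlled mostly at the protein level, gave -0.33 (adjusted p = 0.082) and 0.07 (adjusted p = 0.71). TXNIP, a glucose-responsive gene whose protein lowers glucose uptake, rose (1.13, adjusted p = 2.2e-05, and 1.25, adjusted p = 1.8e-05), as did MLXIP, a partner in glucose sensing (2.03, adjusted p = 3.3e-07, and 1.73, adjusted p = 3.7e-06). Of the 10 regulators tested 3 fell in each fraction, and 4 rose in the CCNB1-negative fraction and 3 in the CCNB1-positive one.

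Hypoxia-responsive genes outside glycolysis were called at about the shares of all genes tested. Of 15 tested, 5 fell and 5 rose in CCNB1-negative and 4 fell and 7 rose in CCNB1-positive cells, with median log2 changes of 0.07 and 0.19. NDRG1 rose from between 5.99 and 10.4 RPM in untreated to between 137 and 366 RPM in treated libraries (4.76, adjusted p = 2.6e-09, and 4.50, adjusted p = 2.8e-08). CA9, a carbonic anhydrase used as a marker of hypoxia, fell (-0.98, adjusted p = 3e-04, and -0.57, adjusted p = 0.015), and VEGFA gave 0.32 (adjusted p = 0.11) and rose in CCNB1-positive cells (0.54, adjusted p = 0.015).

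The genes outside the 10 whose profiles over the 8 libraries lay nearest to the mean profile of the 10 were S100A16, GRWD1, STAMBPL1, AC093512.2 and CCT3, among 10119 genes with at least 10 RPM. Likeness was the root mean square distance of the log2 values after centring each gene, and it was between 0.06 and 0.08 for these 5. AC093512.2 shares the reads of ALDOA and is not a separate case. Nearest to SLC2A1 alone were PA2G4, PGAM5 and HSP90AB1, at distances of 0.06, 0.09 and 0.09. Among the 10 genes themselves, ALDOA (0.08) and PFKP (0.14) lay closest to their common mean and HK2 (0.61) and PFKFB3 (0.97) farthest. The distance of PFKFB3 is drawn from the same 8 libraries as its response and is not a separate observation.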

How the data were processed

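HT29 mRNA was measured by directional poly(A) RNA-seq in 8 libraries, 4 groups of 2. The authors trimmed reads (Trim Galore 0.5.0), aligned them to GRCh38 (HISAT2 2.1.0) and quantified genes with SeqMonk. The deposited values are the authors' log2 read counts after scaling each library by its total. How the deposited values treat strand, and reads shared by overlapping genes, is not given in the sources used here.

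Whole reads were recovered from the values (100% within 0.01 of a whole read). The 14219 genes averaging 1 RPM or more were fitted with limma 3.58.1 (R 4.3.3, trended variance, all 4 groups in one fit), and p-values were Benjamini-Hochberg adjusted over all of them, with a threshold of 0.05. An exact permutation test of 2 against 2 libraries cannot go below p = 0.333 and was not used. Gene coordinates are those of the deposited data, exon lengths and overlapping genes come from GENCODE 44, and promoters from RefSeq, all on GRCh38. The fit was also run on simulated data with few changed genes and no pairing of libraries. These settings differ from the data, so that run does not bear on the calls given here. Whole-table alternatives were filters, scalings, a pseudocount, limma-voom, a replicate block and leaving out each library. Outside the 10 genes, those named are defining genes of a list or family, and those past the threshold with a change of at least 4-fold. HKDC1, SLC2A8, SLC2A13, SLC16A7, PGLS, PDHA1, CA9, VEGFA, EGR1, ETV4, ETV5 and CCND1 lie outside that rule and were named after their values were seen. One gene that the rule names is not reported here. The genes, lists and tests were chosen with earlier results of these data known. Intervals cover the spread between libraries. With no more than 2 libraries a group, precision is limited by number more than by depth (12696860 to 23916160 reads).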

Additional observations from a re-analysis of the deposited data

Results flagged for a closer look

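The response of LDHA to selumetinib differed between the fractions by 1.39 on the log2 scale (CCNB1-positive minus CCNB1-negative), and it is singled out because the test of that difference itself passed (limma, adjusted p = 0.011). It did not pass without untreated CCNB1-positive replicate 1 (1.18, adjusted p = 0.058) or treated CCNB1-negative replicate 2 (1.18, adjusted p = 0.062). Groups of 2 libraries are too small for a check of single outlying samples.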

How the results depend on the processing

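Of the alternative values for single genes, 861 kept direction and side of the threshold, 34 lost the call, 25 gained it and none changed direction in a call. The count of genes that fell was 9 in CCNB1-negative cells with each library left out, and 9 to 10 in CCNB1-positive cells, PFKFB3 being the gene lost. The count that differed between treated fractions, 7, was 4 at an adjusted p under 0.01 and ranged from 3 to 9 with 1 library left out. The count with a differing response, 1 (LDHA), was 2 with a filter of 10 RPM, 3 with quantile normalization, 2 with limma-voom and 0 at an adjusted p under 0.01, and ranged from 0 to 5 with 1 library left out. With both libraries of a group needed for its spread, a group left with 1 was taken to vary like the others.

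The replicate block moved the count with a differing response to 2 over all groups and to 9 within treatment. Of the 14219 genes tested, those with a differing response rose from 758 to 883 and 3850. The count that differed between treated fractions was 7 with the block over all groups and 10 with the block within treatment. With the latter, HK2 (limma adjusted p = 0.017), PGK1 (0.00078) and PFKFB3 (0.0048) passed too. Among all genes tested, calls between treated fractions rose from 3077 to 3741 and 6671. Deviations of same-numbered libraries correlated at 0.352 between the untreated and 0.428 between the treated fractions. For the other 4 pairs of groups the correlations were between -0.0875 and 0.0821. Same-numbered fractions of the same treatment thus moved together, while the numbers do not pair libraries over all groups. The main fit did not use the pairing within treatment. The fit of only the groups compared gives no interaction and was not run for it.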
